A study of Mus musculus and synthetic construct with 15 samples.

Results

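The Rbpms locus contributed 11 of the 3820 mouse genome regions tested for enhancer activity in the newborn heart, and 10 of these 11 were abundant enough in the virus to be compared. Each region is 400 bp long (mm10). A region was counted to the locus when its midpoint lay within 100 kb of Rbpms and no other protein-coding gene body was closer (RefSeq genes of GRCm38, which is mm10). Regions for the comparisons were chosen by 1 measured value, a mean of at least 10 counts per DNA library, which 2601 of the 3820 regions met. DNA counts also stand in every RNA over DNA ratio, so those ratios are given as a description, without p-values, and nothing is read from calls made on them. The locus was itself selected with results of this assay known. The clearest difference between chambers was at a region 63.3 kb beyond the gene, where reporter RNA was 1.93-fold higher in atrium. A pair of regions inside the gene, at 1.96-fold and 2.34-fold, were also higher in atrium, and no region of the locus passed the test in the ventricular direction.

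Rbpms encodes an RNA-binding protein with an RNA recognition motif. It takes part in alternative splicing in muscle cells, including heart muscle, and it is also known as hermes. Enhancers are stretches of DNA that raise transcription from a promoter, often in some cell types and not in others, and p300 is a coactivator that acetylates histones and is widely found at active enhancers. The reporter assay reads the activity of a candidate sequence outside its chromosome, so it measures the region and not the expression of Rbpms.

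The libraries came from a massively parallel reporter assay in vivo. A pool of candidate sequences packaged in adeno-associated virus (AAV9) was given to wild-type mouse pups at birth (postnatal day 0), and both heart chambers were collected on postnatal day 7. The 3 groups of 5 libraries were atrial RNA and ventricular RNA, both labelled as cardiomyocytes, and DNA of the AAV9 pool. No marker gene is measured by the assay, so the labelled tissue could not be checked, and the labels do not say whether replicates came from separate animals. P-values therefore measure the spread between these libraries, which may be technical. Total counts ran from 877773 to 3781726 in RNA and from 2312820 to 2958271 in DNA libraries. The replicate 1 RNA libraries had 700 and 765 regions without a count, as against 36 to 85 in replicates 2 to 5 and 657 to 731 in DNA. Calls between chambers are therefore also given without replicate 1.

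Of the members, 8 lay inside the 147280 bp gene body (chr8:33782643-33929922), and 3 lay beyond its higher-numbered end. The members are named by the identifiers in the deposited table, whose tags are used as given. From the lower-numbered end, the gene body held GeneAVB-6-0 (chr8:33786351-33786750), GeneAVB-7-0 (chr8:33798598-33798997), GeneAVB-8-0 (chr8:33812979-33813378), GeneAVB-9-0 (chr8:33832536-33832935), GeneAVB-10-0 (chr8:33833211-33833610), GeneAVB-11-0 (chr8:33842062-33842461), vMTF-p300-132-0 (chr8:33905831-33906230) and ESC-Neg-607-0 (chr8:33914150-33914549). Beyond the gene lay aMTF+p300-157-0 (chr8:33978347-33978746), aMTF+p300-157-1 (chr8:33978747-33979146) and vMTF+p300-267-0 (chr8:33992987-33993386), with midpoints 48.6, 49.0 and 63.3 kb from it. The aMTF+p300 regions are adjoining tiles with no gap, and GeneAVB-9-0 and GeneAVB-10-0 are 275 bp apart, so these pairs are not independent samples of the locus. The 3 outer regions lay within 3.19 to 4.44 kb of long noncoding RNA genes, Gm33588 for the tiles and Gm39157 for vMTF+p300-267-0. In the deposited table's own grouping, 7 members were called MTF or P300, 2 (GeneAVB-6-0 and GeneAVB-8-0) spMTF or spP300, 1 (GeneAVB-9-0) TF1-2 and 1 (ESC-Neg-607-0) Neg.

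vMTF+p300-267-0 was the most abundant region of the locus in every library. Levels are given as CPM, counts per 1e+06 counts of the library in the 2601 tested regions, scaled with TMM factors over the 15 libraries. In atrial replicates 1 to 5 this region had 1917, 1877, 1720, 1945 and 1904 CPM. In ventricle it was 1040, 1052, 873, 888 and 1058 CPM, and in the virus DNA 597, 608, 652, 578 and 592 CPM. The 3 groups did not overlap, with DNA lowest and atrium highest. The coefficient of variation was 4.74% in atrium and 9.49% in ventricle. This region alone held 49.1% ± 2.93 of the locus counts in atrium, 38.6% ± 2.74 in ventricle and 28.9% ± 1.87 in DNA (SD, n = 5, over the 10 regions compared), shares that do not depend on how libraries are scaled.

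GeneAVB-10-0, 50.8 kb into the gene, had 576, 537, 727, 372 and 748 CPM in atrium. In ventricle it had 333, 287, 322, 303 and 281 CPM, so every atrial library lay above every ventricular one. DNA stood between them at 503, 539, 426, 543 and 452 CPM and overlapped the atrial range. GeneAVB-11-0, at 59.6 kb, had the lowest mean ventricular level of the 10 regions compared, at 29.8, 39.7, 55.0, 34.5 and 34.4 CPM. Its atrial levels were 107, 83.8, 36.8, 125 and 99.5 CPM, of which replicate 3 fell inside the ventricular range. DNA was 57.3 to 67.3 CPM, above all 5 ventricular values.

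vMTF-p300-132-0, 123.4 kb into the gene, leaned the other way. It had 136, 106, 108, 179 and 99.5 CPM in atrium and 143, 186, 183, 176 and 190 CPM in ventricle, with overlapping ranges. DNA was far lower, at 26.7 to 34.5 CPM. GeneAVB-6-0, 3.9 kb into the gene, had 418, 386, 379, 340 and 439 CPM in atrium and 362, 449, 337, 365 and 355 CPM in ventricle, against 77.7 to 92.9 CPM in DNA. Both chambers lay well above DNA there and overlapped each other. GeneAVB-9-0 was the scarcest of the 10 in DNA, at 14.0, 13.8, 15.8, 27.2 and 14.9 CPM. It had 36.4, 83.8, 65.8, 89.3 and 186 CPM in atrium, a coefficient of variation of 60.9%, and 57.4, 77.5, 65.0, 55.0 and 75.4 CPM in ventricle.

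The other 4 regions stood near or below their DNA level. GeneAVB-7-0 ran from 183 to 288 CPM in atrium, 210 to 236 in ventricle and 220 to 314 in DNA. GeneAVB-8-0 ran from 131 to 203 CPM in atrium, 98.9 to 208 in ventricle and 187 to 205 in DNA. The tile aMTF+p300-157-0 had 38.5 to 134 CPM in atrium and 58.0 to 93.8 in ventricle, mostly below its 127 to 162 CPM in DNA. Its neighbour aMTF+p300-157-1 had 114 to 220, 103 to 247 and 129 to 231 CPM in atrium, ventricle and DNA, ranges that overlapped throughout.

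**Figure D1:**
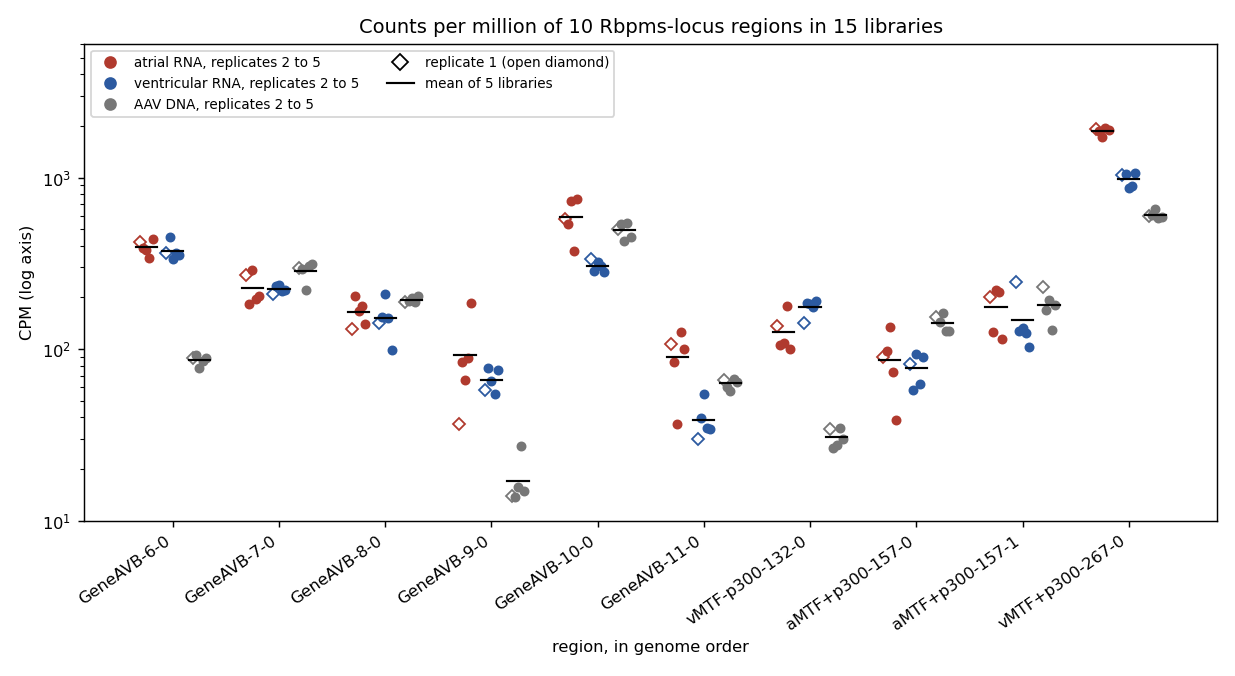
CPM (log axis) of the 10 Rbpms-locus regions compared, in genome order, with 1 point per library for atrial RNA (red), ventricular RNA (blue) and AAV DNA (grey). Open diamonds are replicate 1 and black bars are means of 5 libraries. The atrial points of vMTF+p300-267-0 and GeneAVB-10-0 sit above all their ventricular points, and GeneAVB-6-0, GeneAVB-9-0 and vMTF-p300-132-0 stand above their DNA in both chambers.

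The chambers were compared with edgeR's quasi-likelihood test over all 2601 regions, with Benjamini-Hochberg adjustment and a call at an adjusted p under 0.05. Of the 10 regions, 3 passed as higher in atrium and 0 as higher in ventricle, which leaves 7 that did not pass. Across all tested regions 30.9% were called between chambers, namely 15.8% higher in atrium and 15.1% higher in ventricle. The count called at the locus, 3 of 10, was near that background. The median log2 difference, atrium over ventricle, was 0.23 over the 10 regions and 0.03 over all regions. Values were above 0 at 9 of the 10, of which 3 passed, and at 1352 of all 2601 regions. Libraries did not overlap in 2 of the 10, both higher in atrium, where the background over all tested regions was 22.8%, split into 10.4% higher in atrium and 12.4% higher in ventricle.

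vMTF+p300-267-0 had a log2 difference of 0.95 ± 0.08 (SE, n = 5 and 5; adjusted p = 2.85e-07, edgeR). GeneAVB-10-0 had 0.97 ± 0.16 (adjusted p = 0.00025, edgeR), and GeneAVB-11-0 had the largest difference of the locus, 1.23 ± 0.30, with a wider interval of 0.59 to 1.87 (adjusted p = 0.00572, edgeR). These 3 regions passed under all 18 alternatives tried, with adjusted p-values by edgeR or DESeq2 of at most 3.52e-05, 0.00278 and 0.0260 respectively. Without replicate 1 in both groups the same 3 regions were called. vMTF-p300-132-0 had -0.47 ± 0.19 and did not pass (adjusted p = 0.0711, edgeR). It passed by DESeq2 (-0.46, adjusted p = 0.0470) and in edgeR without atrial replicate 4 (-0.64, adjusted p = 0.0106), the library with its highest atrial level, and over all alternatives its adjusted p ran from 0.0106 to 0.253.

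The remaining 6 regions did not pass, which does not show equal activity. The 95% intervals of the log2 difference allowed up to 0.33 in favour of atrium at GeneAVB-6-0, 0.36 at GeneAVB-7-0, 0.56 at GeneAVB-8-0, 0.79 at aMTF+p300-157-0 and 0.83 at aMTF+p300-157-1. They reached -0.16, -0.28, -0.28, -0.43 and -0.26 towards ventricle. At GeneAVB-9-0 the difference was 0.50 with an interval of -0.21 to 1.21, and it dropped to 0.08 without atrial replicate 5, its highest library. The intervals were narrow at GeneAVB-6-0 and broad at the tiles and at GeneAVB-9-0.

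**Figure D2:**
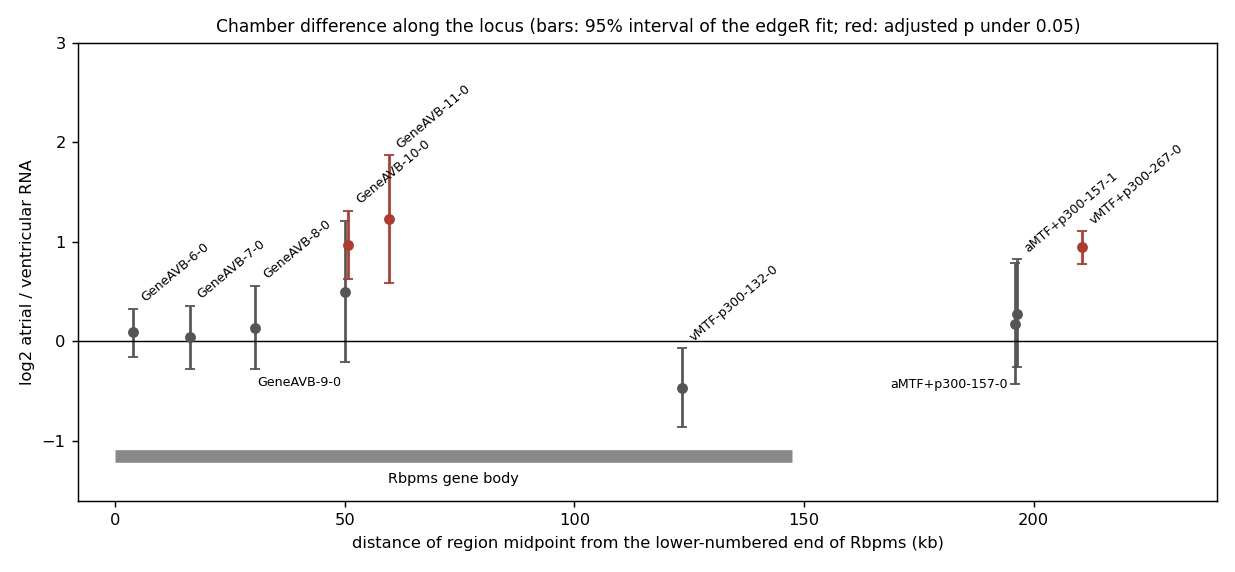
Log2 ratio of atrial to ventricular reporter RNA (vertical axis) against the distance of each region's midpoint from the lower-numbered end of Rbpms in kb (horizontal axis), with the gene body as a grey bar. Points are edgeR estimates from 5 and 5 libraries and bars are 95% intervals, red where the adjusted p was under 0.05. The red points are GeneAVB-10-0 and GeneAVB-11-0, at 50.8 and 59.6 kb, and vMTF+p300-267-0 at 210.5 kb, and the one estimate below 0 is vMTF-p300-132-0 at 123.4 kb.

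Libraries with the same number gave a second view of the same differences, on log2 CPM with a prior count of 2. Whether same-numbered libraries are true pairs was not shown. vMTF+p300-267-0 was higher in atrium in each of the 5 pairs, by 0.88, 0.83, 0.98, 1.13 and 0.85. GeneAVB-10-0 was also higher in 5 of 5, by 0.79, 0.90, 1.17, 0.29 and 1.41. GeneAVB-11-0 was higher in 4 of 5, with 1.81, 1.06, -0.57, 1.83 and 1.51, so replicate 3 went against the rest. vMTF-p300-132-0 was lower in atrium in 4 of 5, with -0.06, -0.81, -0.75, 0.03 and -0.93. No other region had the same sign in all pairs. In replicate 1 the sign equalled that of the mean over replicates 2 to 5 in 6 of the 10 regions.

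**Figure D3:**
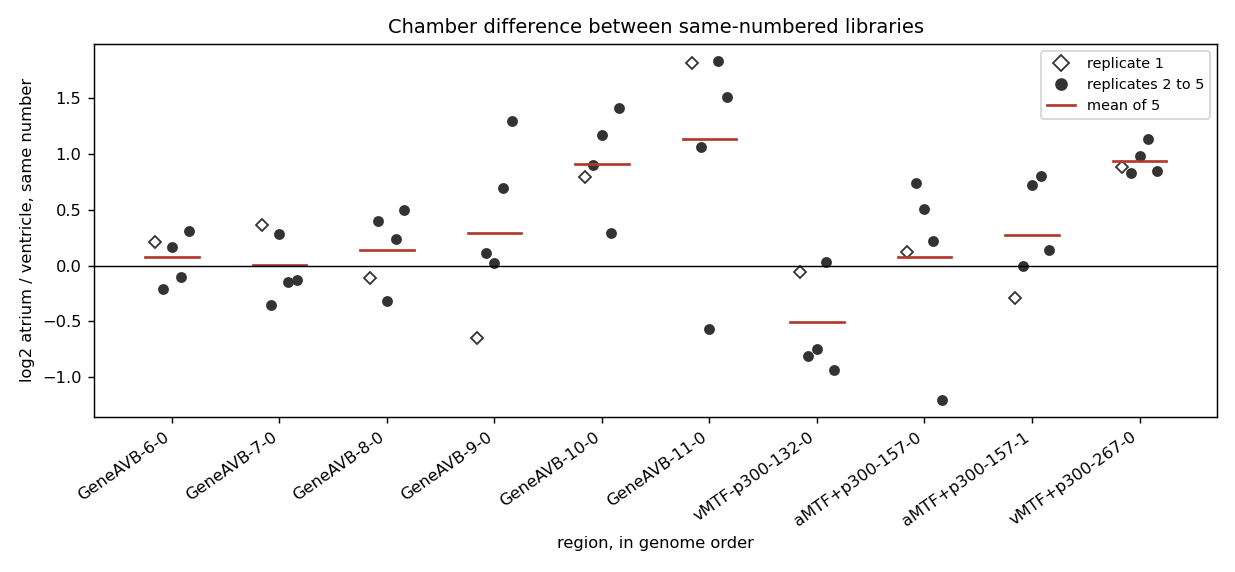
Log2 difference between the atrial and the ventricular library of the same replicate number (vertical axis) for each of the 10 regions in genome order, from log2 CPM with a prior count of 2. Open diamonds are replicate 1, filled points replicates 2 to 5 and red lines the mean of 5. The 5 points of vMTF+p300-267-0 lie between 0.83 and 1.13, while those of GeneAVB-11-0 spread from -0.57 to 1.83.

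Whether neighbouring regions differed in their chamber preference was tested on the log2 ratio between the members of each adjacent pair, in which the scaling of libraries cancels. None of the 9 pairs passed an exact permutation test (two-sided, 5 against 5 libraries) after Benjamini-Hochberg adjustment over the pairs. The smallest p this design allows is 0.00794, which 1 pair reached. This was GeneAVB-11-0 over vMTF-p300-132-0, 63.4 kb apart, with a log2 ratio of -0.55 ± 0.58 in atrium and -2.18 ± 0.28 in ventricle (SD, n = 5), a difference of 1.63 (exact permutation p = 0.00794, adjusted p = 0.0714). A pair that alone reaches the smallest p cannot pass after adjustment over 9 pairs. The tile aMTF+p300-157-1 over vMTF+p300-267-0 followed, with a difference of -0.66 (exact permutation p = 0.0635, adjusted p = 0.286). For GeneAVB-9-0 over GeneAVB-10-0, 275 bp apart, the difference was -0.62 (exact permutation p = 0.198, adjusted p = 0.446).

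Against the virus DNA, GeneAVB-6-0, GeneAVB-9-0, vMTF-p300-132-0 and vMTF+p300-267-0 had the highest RNA over DNA in both chambers. In atrium the log2 RNA over DNA was 2.31 ± 0.38 (SE) at GeneAVB-9-0, 2.07 ± 0.12 at GeneAVB-6-0, 1.94 ± 0.21 at vMTF-p300-132-0 and 1.53 ± 0.07 at vMTF+p300-267-0. Then came GeneAVB-11-0 at 0.41 ± 0.27, GeneAVB-10-0 at 0.16 ± 0.17, aMTF+p300-157-1 at -0.14 ± 0.21, GeneAVB-8-0 at -0.34 ± 0.13, GeneAVB-7-0 at -0.43 ± 0.16 and aMTF+p300-157-0 at -0.81 ± 0.25. The 95% intervals of neighbours in this order overlapped, except between vMTF+p300-267-0 (1.38 to 1.68) and GeneAVB-11-0 (-0.16 to 0.99). The fold between the extremes was 8.74.

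In ventricle vMTF-p300-132-0 led, at 2.52 ± 0.14, before GeneAVB-6-0 at 2.10 ± 0.11 and GeneAVB-9-0 at 1.95 ± 0.22. vMTF+p300-267-0 stood by itself at 0.70 ± 0.08, with an interval of 0.53 to 0.87 that met neither neighbour's. The remaining 6 lay between -0.32 at aMTF+p300-157-1 and -0.88 at aMTF+p300-157-0, including GeneAVB-10-0 at -0.69 ± 0.09 and GeneAVB-11-0 at -0.70 ± 0.18. For GeneAVB-10-0 and GeneAVB-11-0 the place of the atrial level relative to DNA depended on the settings. Their atrial ratios were 0.63 and 0.88 with library totals, 0.56 and 0.82 with scaling on the regions grouped as Neg, and 0.43 and 0.68 at a DNA minimum of 50. In ventricle GeneAVB-11-0 had -0.33 with library totals. The chambers share the DNA libraries, so these orders are given side by side only.

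By the edgeR call, atrial RNA of 4 members was higher and of 3 lower than DNA. Over all tested regions 74.7% were called in that comparison, 38.4% higher and 36.3% lower. Ventricular RNA was higher than DNA at 4 members and lower at 5, and over all tested regions 81.2% were called, 43.4% higher and 37.8% lower. Nothing is read from these counts, since DNA took part in the choice of the members. Calls in both directions depended on the settings. Scaling by library totals gave 6 higher calls and 0 lower ones for atrial RNA, and 4 higher and 2 lower for ventricular RNA. Scaling on the regions grouped as Neg gave 6 and 0 for atrial RNA, and 4 and 3 for ventricular RNA. A DNA minimum of 50, under which GeneAVB-9-0 was not fitted, gave 5 and 0 for atrial RNA and 3 and 3 for ventricular RNA. Without DNA replicate 1, 2, 4 or 5 or atrial replicate 5 the atrial split was 4 and 1. Over the alternatives, the log2 ratios of GeneAVB-6-0, GeneAVB-9-0, vMTF-p300-132-0 and vMTF+p300-267-0 were at least 0.46 in both chambers.

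RNA over DNA was lower for regions abundant in DNA across the whole assay, so the members were also set beside regions in the same range of DNA count. The match is rough, since the ranges are wide and the highest is open upward. DNA is also the denominator of the ratio. The median log2 atrial ratio of tested regions was 1.21 below a mean DNA count of 100, 0.20 from 100 up to 300, and -0.66 from 300 upward. The ventricular medians in these ranges were 1.43, 0.28 and -0.69. vMTF+p300-267-0, with a mean DNA count of 1291, exceeded its range's median by 2.18 in atrium and 1.39 in ventricle. Its atrial ratio was above 95.6% and its ventricular ratio above 85.2% of the 1177 regions in that range. GeneAVB-6-0, at a mean count of 187, exceeded the median by 1.87 and 1.82 and lay above 88.6% and 85.4% of 570 regions. GeneAVB-9-0 and vMTF-p300-132-0, at mean counts of 36.6 and 66.0, were closer to the 854 regions of their range, above 72.3% and 64.1% of them in atrium and 60.9% and 72.4% in ventricle. GeneAVB-10-0 had 0.81 over the median in atrium and was at the median in ventricle, above 49.9% of its range. GeneAVB-11-0 was 0.22 over in atrium and -0.98 in ventricle, above 18.9% of its range there.

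**Figure D4:**
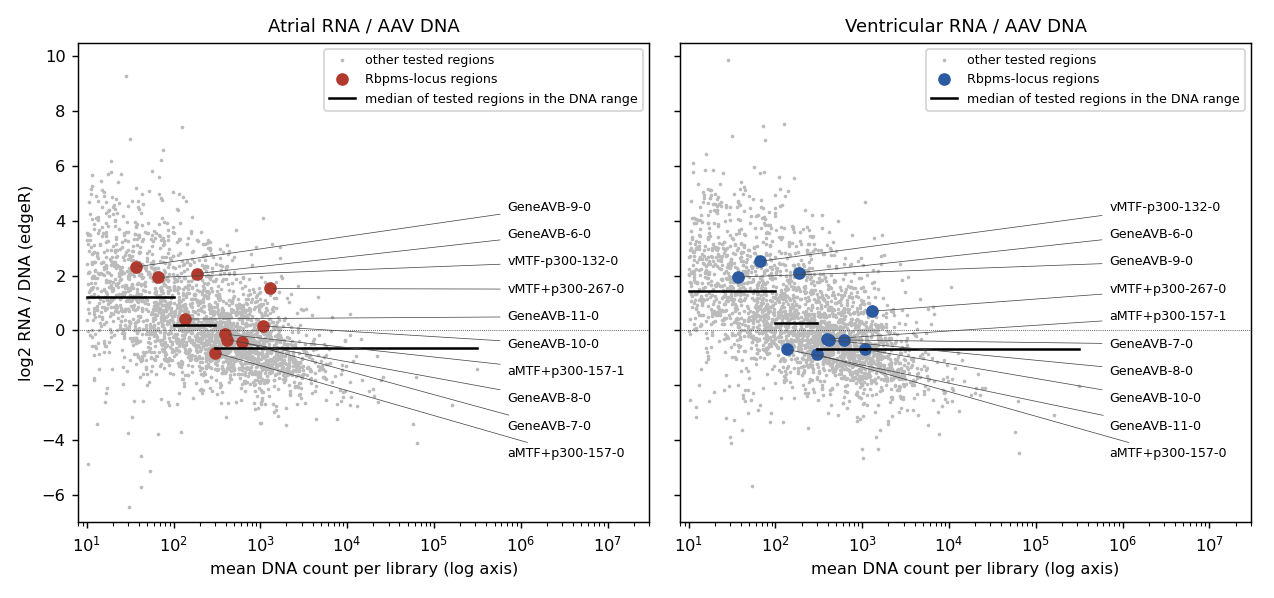
Log2 RNA over DNA from edgeR (vertical axis) against the mean DNA count per library (log axis) for all 2601 tested regions, atrium on the left and ventricle on the right. Coloured points are the 10 Rbpms-locus regions, grey points the others, and black lines the medians of tested regions in the DNA count ranges that meet at 100 and 300. vMTF+p300-267-0 and GeneAVB-6-0 lie farthest above the line of their range in both panels.

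The close pairs were compared within each library, where scaling cancels. The log2 level of GeneAVB-9-0 minus that of GeneAVB-10-0 was -4.81 ± 0.36 in DNA, -2.82 ± 0.86 in atrium and -2.20 ± 0.31 in ventricle (SD, n = 5). It was thus higher by 1.99 and 2.61 in RNA, and neither RNA range met the DNA range. The mean DNA counts were 36.6 and 1061, and RNA over DNA fell with DNA count across the assay. Relative to the medians of their DNA count ranges, the log2 RNA over DNA of GeneAVB-9-0 and GeneAVB-10-0 was 1.10 and 0.81 in atrium. In ventricle GeneAVB-9-0 was 0.52 over its median and GeneAVB-10-0 was at its median. The gap within the pair was thus smaller relative to the medians of these wide ranges. Between the adjoining tiles, aMTF+p300-157-0 minus aMTF+p300-157-1 was -0.33 ± 0.23 in DNA, -1.07 ± 0.52 in atrium and -0.87 ± 0.54 in ventricle, with overlapping ranges.

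Replicate 1 gave similar RNA over DNA values for some members and not for others. On log2 CPM with a prior count of 2, atrial vMTF+p300-267-0 had 1.66 in replicate 1 and 1.62 over replicates 2 to 5, and ventricular 0.78 and 0.67. GeneAVB-6-0 had 2.26 and 2.14 in atrium and 2.05 and 2.10 in ventricle. GeneAVB-11-0 had 0.76 and 0.32 in atrium and -1.06 and -0.64 in ventricle. The widest gaps were at GeneAVB-9-0 in atrium, 1.10 and 2.5, and at aMTF+p300-157-1 in ventricle, 0.47 and -0.55.

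The 10 regions were also summed, here as CPM of the library total over all 3820 regions, without TMM factors. They held 3775 ± 274 CPM in atrium, 2489 ± 228 in ventricle and 1767 ± 159 in DNA (SD, n = 5). The 3 ranges did not overlap (3588 to 4253, 2278 to 2862 and 1503 to 1887). Without vMTF+p300-267-0 the sums were 1924 ± 185, 1526 ± 141 and 1259 ± 143 CPM. The atrial range of 1711 to 2153 then met the ventricular range of 1371 to 1737. The atrial mean was thus still higher, with ranges that met between 1711 and 1737 CPM. In fits scaled by library totals, there taken over the 2601 tested regions, the median log2 RNA over DNA of all tested regions was 0.51 in atrium and 0.50 in ventricle. RNA sums above the DNA sum are therefore not read as a trait of the locus.

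The tags of the members did not always match the direction of the difference. vMTF+p300-267-0 was higher in atrium although, of 389 tested regions with that tag, 11.3% were higher in atrium and 29.3% in ventricle, with a median log2 difference of -0.16. Only 19 of the 389 had a larger value. vMTF-p300-132-0 lay on the ventricular side, as did the median of the 135 tested regions with its tag (-0.20). The aMTF+p300 tiles, at 0.18 and 0.28, were near the median of the 266 with theirs (0.22). Among the 6 members tagged GeneAVB, 2 were higher in atrium, and in the class as a whole 21.2% of 865 were. GeneAVB-10-0 and GeneAVB-11-0 were exceeded by 74 and 35 of the 865.

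Other loci were set beside Rbpms by the profile over the 10 RNA libraries, as the mean over a locus's regions of log2 CPM minus the DNA mean. The Rbpms profile was 0.68 to 0.78 in atrium and 0.29 to 0.50 in ventricle. Among 44 other loci with at least 5 tested regions, the closest profiles were those of Sardh, a mitochondrial sarcosine dehydrogenase (r = 0.888), Tcf7l1, a transcription factor of the Wnt pathway (r = 0.865), and Lamb3, a laminin chain (r = 0.815). These are correlations over 10 libraries that share their depth and scaling, given as a description. Without replicate 1 the first 2 kept their places (0.872 and 0.865 respectively). In that setting Kcnj5, a potassium channel subunit named here after its value was seen, and Lamb3 were nearly equal, at 0.793 and 0.791. The likeness is in the pattern over libraries and not in the level, which was -0.72 in atrium and -1.05 in ventricle at Lamb3. The difference, atrium over ventricle, was 0.33 at Rbpms, 0.31 at Sardh, 0.43 at Tcf7l1 and 0.33 at Lamb3. The loci were ranked on these same libraries, so a difference in the same direction follows from the choice and is no further likeness.

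A list of 30 other RNA-binding and splicing regulators of muscle and other tissues had 7 genes with regions, 6 of them with 13 tested regions. In atrium 2 of the 13 were higher, in ventricle 0 were, and 11 did not pass, with a median log2 difference of 0.07. Over all tested regions 30.9% were called, 15.8% higher in atrium and 15.1% in ventricle. The list's atrial count was near its share, but its total called was below the 30.9%. The set is small, and nothing is read from these counts. One of the 2 regions higher in atrium lay inside Mbnl2, a splicing regulator of the muscleblind family (chr14:120336562-120336961), at 0.79 ± 0.20 (adjusted p = 0.00827, edgeR). The other lay inside Rbfox1, a splicing regulator of muscle and neurons (chr16:6086139-6086538), at 0.75 ± 0.23 (adjusted p = 0.0196, edgeR). Its mean DNA count was 12.0, close to the minimum. Like vMTF+p300-267-0, it carries a vMTF+p300 tag. Another tested region of the list with that tag did not pass, at -0.42 ± 1.53 (adjusted p = 0.877, edgeR).

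At the edges of the choice, the scarcest members inside the DNA minimum were GeneAVB-9-0 and vMTF-p300-132-0, with mean counts of 36.6 and 66.0, and the member outside it was ESC-Neg-607-0 with 0 counts in all 5 DNA libraries, which allows up to 1.30 CPM in the shallowest DNA library (3 counts, counting error only). The next region on the lower side (chr8:33773324-33773723) lay inside Gtf2e2, a subunit of a general transcription factor, and had a mean DNA count of 9.2. The next on the higher side (chr8:34065819-34066218) was nearest to Dctn6, a dynactin subunit, with a mean DNA count of 0.6. The next tested regions on that side were GeneAVB-13-0 (chr8:34074973-34075372) and GeneAVB-15-0 (chr8:34097415-34097814), both also assigned to Dctn6. Neither passed between chambers by edgeR, at a log2 difference of -0.30 ± 0.16 (adjusted p = 0.181) and 0.17 ± 0.10 (adjusted p = 0.235).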

How the data were processed

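The authors deposited raw, whole-number counts for each region and library (15 libraries). The submitters' processing notes name the build mm10 and the tools Bowtie2 2.3.4.3 and cutadapt 2.5. The labels' protocols describe a primer with a molecular identifier. The submitters' name for the deposited counts speaks of reads. No source used here says whether reads were collapsed to molecules. Counts in the series table and the per-sample files differed in 0 values, and no replicate pair agreed within sampling noise (chi-square per degree of freedom of at least 1.79).

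Comparisons used edgeR 4.0.16 in R 4.3.3 (robust quasi-likelihood, TMM factors, 2 groups of 5) over the 2601 regions averaging 10 or more DNA counts. The fit was also run on simulated counts drawn independently for each library. Those hold no effect shared between libraries, so that run is not used as support here. Alternatives were DESeq2 1.42.0, other scalings and filters, a replicate block and left-out libraries. The annotation table gives no strand or exons. Members, gene lists and tests were chosen with earlier results of these data known. All 10 regions above the minimum are named, with the 3 closest loci and list regions that passed.

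Same-numbered atrial and ventricular libraries deviated together (correlations of 0.227 to 0.806, all over 0.1), most strongly in replicate 1. Deviations were taken from the mean of each group's 5 libraries. What the replicate 1 libraries share therefore also enters the other correlations, and these values do not show pairing. The main fits used no pairing, and the replicate block was only an alternative. For RNA and DNA libraries of the same number the correlations were -0.0353 to 0.0585.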

Additional observations from a re-analysis of the deposited data

Results flagged for a closer look

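ESC-Neg-607-0, the member without any DNA count, still had RNA. It had 0 counts in replicate 1 of both chambers and 26, 17, 12 and 19 counts in atrial replicates 2 to 5, 74 in all. In ventricle it had 20, 91, 57 and 48, 216 in all. This is 9.67 ± 4.28 and 15.9 ± 7.89 CPM of the library totals in replicates 2 to 5 (SD, n = 4). It is 1 of 488 regions with no DNA count, of which 478 had a count in atrial and 486 in ventricular replicates 2 to 5, but 47 and 62 in replicate 1. In edgeR without a filter on low counts its chamber difference was -0.64 ± 0.97 (log2, atrium over ventricle; adjusted p = 0.799).

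Of 30 sets of 5 libraries, 5 held a value far from the other 4, where chance gives about 1 in 20. GeneAVB-6-0 had 449 CPM in ventricular replicate 2, the highest. GeneAVB-7-0 had 220 CPM in DNA replicate 3, the lowest, and GeneAVB-9-0 had 27.2 CPM in DNA replicate 4, the highest. In ventricular replicate 1, vMTF-p300-132-0 had the lowest value, 143 CPM, and aMTF+p300-157-1 the highest, 247 CPM.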

How the results depend on the processing

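The count of 3 regions called between chambers was 3 or 4 under every alternative (3 to 4 with libraries left out, 3 with the replicate block), and the block changed no call between chambers at the locus. The adjacent-pair count stayed at 0, with 0 also in the replicate block, where the exact sign-flip test cannot go below p = 0.0625. In none of these settings could a pair pass that alone reached the smallest p, so the steady 0 does not show stability. Counts against DNA ran from 5 to 8 with libraries left out in atrium and from 8 to 10 in ventricle, and were 6 and 10 with the block. Over all regions, fits without a low-count filter called 2952 against 1944 in atrium over DNA and 3171 against 2112 in ventricle over DNA, with more regions fitted (3811 and 3818). Splits over all regions moved from 999 higher and 945 lower to 1312 and 600 (library totals) or 1264 and 644 (Neg scaling) in atrium over DNA, from 1129 and 983 to 1371 and 732 (library totals) in ventricle over DNA, and from 412 and 392 to 578 and 226 (Neg scaling) between chambers. Of 537 alternative values for single regions, 478 kept direction and side of the threshold, 33 kept direction but lost a call, 12 gained one, and 14 changed sign, of which 5 also lost a call; the cause was not tested. With library totals, RNA over DNA became 0.04 (GeneAVB-7-0), 0.14 (GeneAVB-8-0) and 0.34 (aMTF+p300-157-1) in atrium and 0.01, 0.02 and 0.07 in ventricle. With Neg scaling it became 0.06 (GeneAVB-8-0) and 0.26 (aMTF+p300-157-1) in atrium, and 0.13 for the latter at a DNA minimum of 50. Between chambers GeneAVB-7-0 became -0.03 in replicates 2 to 5. With libraries left out, GeneAVB-7-0 ran from -0.07 to 0.11 and aMTF+p300-157-0 from -0.04 to 0.36 between chambers, and aMTF+p300-157-1 from -0.23 to 0.04 in atrium over DNA. Pair differences that crossed 0 then ran from -0.01 to 0.17 (GeneAVB-6-0 and GeneAVB-7-0), -0.28 to 0.02 (GeneAVB-7-0 and GeneAVB-8-0), -0.36 to 0.20 (GeneAVB-8-0 and GeneAVB-9-0) and -0.59 to 0.08 (GeneAVB-10-0 and GeneAVB-11-0). Among the regions compared, GeneAVB-9-0 had the fewest DNA counts, 36.6 per library.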
